A study of Homo sapiens with 37 samples.

Results

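The transcripts of 8 immediate early genes were followed through both count tables: FOS, FOSB, JUN, JUNB, EGR1, ATF3, IER2 and DUSP1. They were chosen by Ensembl identifier, in that order ENSG00000170345, ENSG00000125740, ENSG00000177606, ENSG00000171223, ENSG00000120738, ENSG00000162772, ENSG00000160888 and ENSG00000120129, and are 8 of the 60483 identifiers in each table. FOSB entered the group because it was among the leading rises of the heat-shocked inputs, so T20 against T0 in inputs is described without a test for every member. All libraries came from HEK293T, a human embryonic kidney cell line, carrying APEX, a peroxidase that attaches biotin-phenol to nearby RNA (500 µM for 30 min, then 1 mM H2O2 for 1 min). In every group the input is total RNA and the pulldown is RNA bound to streptavidin beads.

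The naive table held 20 libraries of unstressed cells with 1 of 5 constructs, 2 inputs and 2 pulldowns each. APEX-GFP is the untargeted control, APEX-CBX1 carries a chromatin protein, C1-APEX is anchored at the endoplasmic reticulum, APEX-eIF4E carries the cap-binding protein of translation initiation, and APEX-eIF4A carries the RNA helicase of the same complex. The stress table held 17 libraries, all of cells with APEX-eIF4A: unstressed T0 cells (2 inputs, 2 pulldowns), heat-shocked T4 (1 and 1) and T20 cells (2 and 2), cells given hippuristanol, an inhibitor of eIF4A (2 and 2), and cells given DMSO, its solvent (1 input, 2 pulldowns). The labels give neither the unit of T, nor the temperature, the drug dose, nor whether a construct was expressed in a clone or a pool. The hippuristanol inputs carry a heat shock label but a hippuristanol title, and were grouped by title.

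Immediate early genes are transcribed within minutes of a growth factor, calcium or stress signal, without new protein synthesis, through kinases that act on factors already bound at their promoters. FOS and FOSB proteins pair with JUN or JUNB proteins to form AP-1, a dimeric transcription factor. EGR1 is a zinc finger activator, ATF3 a stress-induced factor of the ATF/CREB family, IER2 a small nuclear regulator and DUSP1 a phosphatase that switches off MAP kinases. Many of these transcripts decay quickly, so their levels are low in resting cells.

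The 250 bases before the RefSeq start site are printed for the AP-1 genes FOS, FOSB and JUN and for EGR1, to show which short motifs they share. Each is written 5′ to 3′ in the direction of the gene, and the windows are chr14:75278578-75278827 (plus strand) for FOS, chr19:45467746-45467995 (plus) for FOSB, chr1:58784048-58784297 (minus) for JUN and chr5:138465229-138465478 (plus) for EGR1, in GRCh38.p14. Capitals mark the half-site of the cyclic AMP response element, TGACG on either strand, the TATA box TATAAA and, in EGR1, the CArG box bound by serum response factor.
FOS: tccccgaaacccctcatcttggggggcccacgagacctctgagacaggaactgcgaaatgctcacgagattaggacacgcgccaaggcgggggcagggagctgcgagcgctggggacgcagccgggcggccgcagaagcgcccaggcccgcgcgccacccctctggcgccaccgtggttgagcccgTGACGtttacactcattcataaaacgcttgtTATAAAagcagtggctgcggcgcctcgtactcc
FOSB: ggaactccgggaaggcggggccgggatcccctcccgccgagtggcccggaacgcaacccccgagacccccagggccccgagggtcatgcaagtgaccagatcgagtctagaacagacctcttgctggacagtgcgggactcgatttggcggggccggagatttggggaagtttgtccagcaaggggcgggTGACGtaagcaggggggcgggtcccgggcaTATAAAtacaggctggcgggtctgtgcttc
JUN: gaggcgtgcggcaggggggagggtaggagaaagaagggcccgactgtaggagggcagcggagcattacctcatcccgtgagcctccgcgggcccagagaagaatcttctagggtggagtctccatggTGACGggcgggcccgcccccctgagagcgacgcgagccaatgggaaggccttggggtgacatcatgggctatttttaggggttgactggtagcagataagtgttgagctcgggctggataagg
EGR1: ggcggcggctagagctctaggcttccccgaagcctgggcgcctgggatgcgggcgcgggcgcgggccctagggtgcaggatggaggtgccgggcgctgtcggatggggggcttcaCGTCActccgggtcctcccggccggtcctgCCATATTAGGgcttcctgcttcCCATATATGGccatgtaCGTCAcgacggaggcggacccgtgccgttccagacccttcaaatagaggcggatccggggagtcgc

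FOS and FOSB shared an arrangement in these windows. The half-site began 64 bases before the FOS start and 60 before the FOSB start, and a TATA box followed at 33 and 30 bases. JUN held a half-site at 123 bases and no TATA box. EGR1 held a pair of CArG boxes, at 105 and 83 bases, and the half-site in reverse at 135 and 66 bases. Over all 8 members the half-site occurred in 7, against 21.2% of 35116 promoters of that length. The TATA box occurred in 5 against 10.7%, and the CArG box in 1 against 1.16%. The TATA match of ATF3 began 230 bases before its listed start. Those of FOS, FOSB, JUNB and DUSP1 began at 33, 30, 31 and 30 bases. Bases further upstream were not searched, so a CArG box there would not be counted. The full element TGACGTCA, which contains the half-site, occurred in DUSP1 alone (1.65% of promoters), and the heat shock unit pair GAANNTTC in JUN alone (5.78%, not in capitals above). The AP-1 site TGANTCA occurred in 0 of 8 windows (6.57%). In RefSeq all 8 are protein-coding genes: FOS spans chr14:75278828-75282230, FOSB chr19:45467996-45475179, JUN chr1:58780791-58784047, JUNB chr19:12791486-12793315, EGR1 chr5:138465479-138469303, ATF3 chr1:212565407-212620777, IER2 chr19:13150411-13154911 and DUSP1 chr5:172768096-172771195. The window listed for ATF3 lies inside the gene's annotated span and may belong to a shorter transcript. These matches describe letters and not bound sites.

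The naive inputs summed to 1419968 to 2629957 counts, and the totals were 1718517 to 3276410 in the naive pulldowns, 4540426 to 7782943 in the stress inputs and 707356 to 1221213 in the stress pulldowns. Transcript lengths were not used, so levels are not compared between genes. Levels are given in CPM, read counts brought to a common library size with TMM scaling, where 1 count was worth 0.454 to 0.982 CPM in naive inputs and 0.839 to 2.39 CPM in stress pulldowns. Replicates correlated at 0.904 to 0.954 in the naive table, except C1-APEX pulldowns (0.761), at 0.943 to 0.966 in stress inputs and at 0.613 to 0.73 in stress pulldowns (log2 CPM across identifiers, which are not independent replicates). Each table was normalised alone, so levels are not compared between them. No gene table used here pairs Ensembl identifiers with symbols, so other genes of the pathway, HEK293T markers and heat shock genes were not analysed. Fewer cells with a transcript and less of it per cell cannot be told apart in these libraries.

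**Figure D1:**
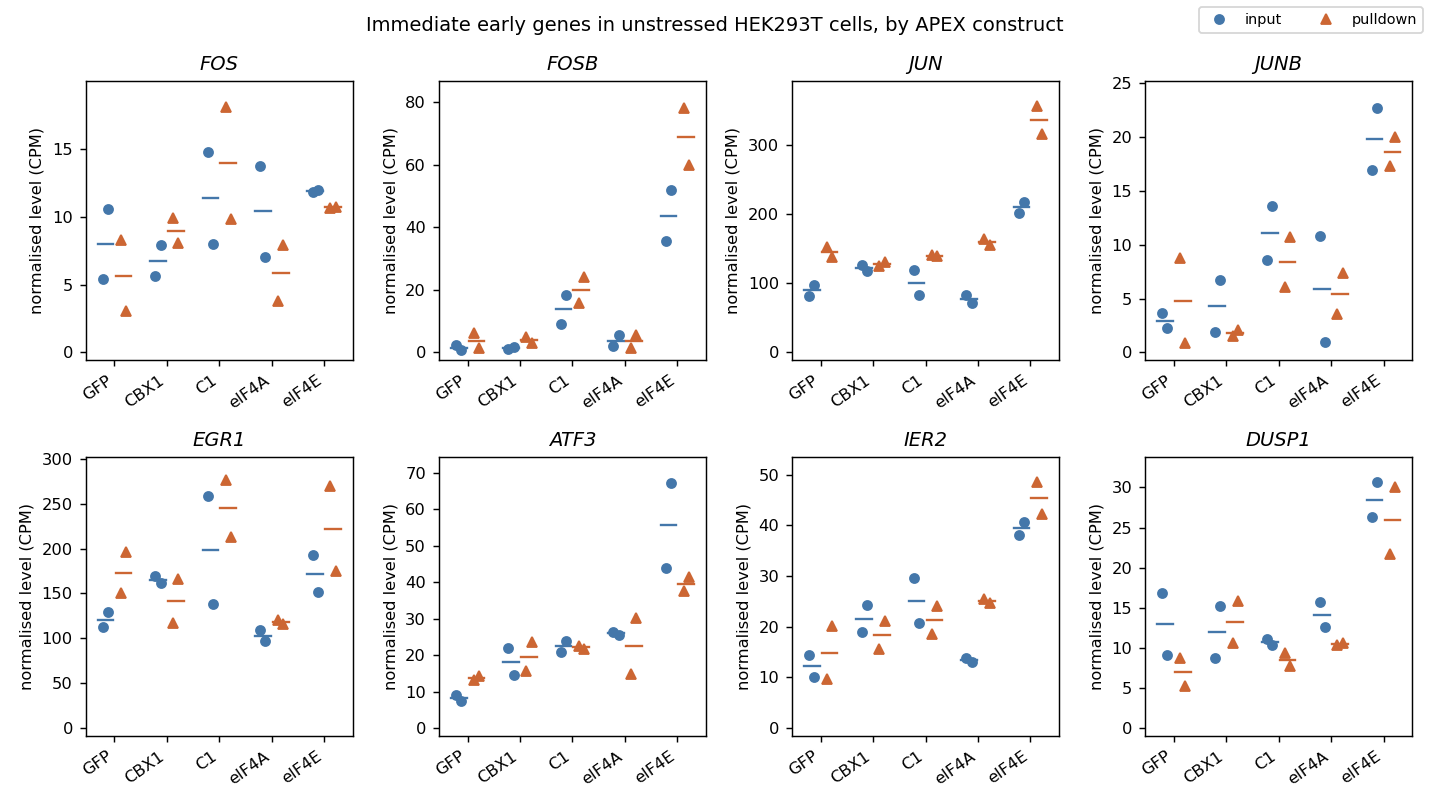
Each panel plots the CPM of 1 gene in the 20 naive libraries, by construct; blue circles are inputs, orange triangles pulldowns and short lines group means. In FOSB, JUN, JUNB, ATF3, IER2 and DUSP1 both APEX-eIF4E libraries lie above all other libraries of the same fraction, as did 6.67% of identifiers in inputs and 5.23% in pulldowns.

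The total RNA of cells with APEX-eIF4E held more of several immediate early transcripts than that of cells with APEX-GFP. FOSB, JUN, JUNB, ATF3 and IER2 passed an adjusted p of 0.05 (edgeR's quasi-likelihood test, Benjamini-Hochberg over 12427 identifiers), 5 of 8 members against 2.78% of all identifiers called in either direction and 1.34% called higher. In all 8 members both APEX-eIF4E inputs lay above both APEX-GFP inputs, which held for 25.8% of identifiers. The median log2 difference of the members was 1.45, against 0.000248 over all identifiers.

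FOSB, the AP-1 subunit chosen from the heat shock contrast, differed most. Its level was 35.6 and 51.9 CPM in the APEX-eIF4E inputs (mean 43.8 ± 11.6, SD, n = 2) and 2.27 and 0.916 CPM in the APEX-GFP inputs (mean 1.59 ± 0.957, SD, n = 2). The groups did not overlap, and the APEX-GFP values rest on 5 and 2 counts. The log2 difference was 4.74 ± 0.59 (SE), 26.7-fold, with adjusted p = 8.19e-06. It stayed past the threshold without any 1 of the 4 libraries, although without the first APEX-GFP input it became 5.49.

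JUN encodes the partner of FOS proteins in AP-1. It stood at 202 and 218 CPM in APEX-eIF4E inputs and 81.7 and 98.0 CPM in APEX-GFP inputs, a log2 difference of 1.23 ± 0.15 (SE; adjusted p = 7.98e-06) that ranged from 1.08 to 1.35 when each library was left out. JUNB stood at 16.9 and 22.6 CPM against 3.63 and 2.29 CPM, 2.73 ± 0.72 higher (adjusted p = 0.0353). The JUNB call was lost without any 1 of the 4 libraries, with adjusted p up to 0.349. FOS, at 11.9 and 12.0 CPM against 5.45 and 10.5 CPM, differed by 0.58 ± 0.52 and did not pass (adjusted p = 0.694).

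Among the other members, ATF3 and IER2 rose. ATF3 was at 44.0 and 67.3 CPM in APEX-eIF4E inputs and 9.08 and 7.33 CPM in APEX-GFP inputs, a log2 difference of 2.77 ± 0.35 (SE; adjusted p = 1.03e-05) that passed without any 1 library (2.39 to 3.02). IER2 was at 38.1 and 40.6 CPM against 14.5 and 10.1 CPM, 1.68 ± 0.32 higher (adjusted p = 0.00278). That call was lost without the second APEX-GFP input (1.42, adjusted p = 0.126) or the second APEX-eIF4E input (1.60, adjusted p = 0.0751). DUSP1, at 26.3 and 30.6 CPM against 16.8 and 9.16 CPM, differed by 1.13 ± 0.36 (adjusted p = 0.0988). EGR1, at 192 and 151 CPM against 112 and 129.6 CPM, differed by 0.50 ± 0.23 (adjusted p = 0.316).

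**Figure D2:**
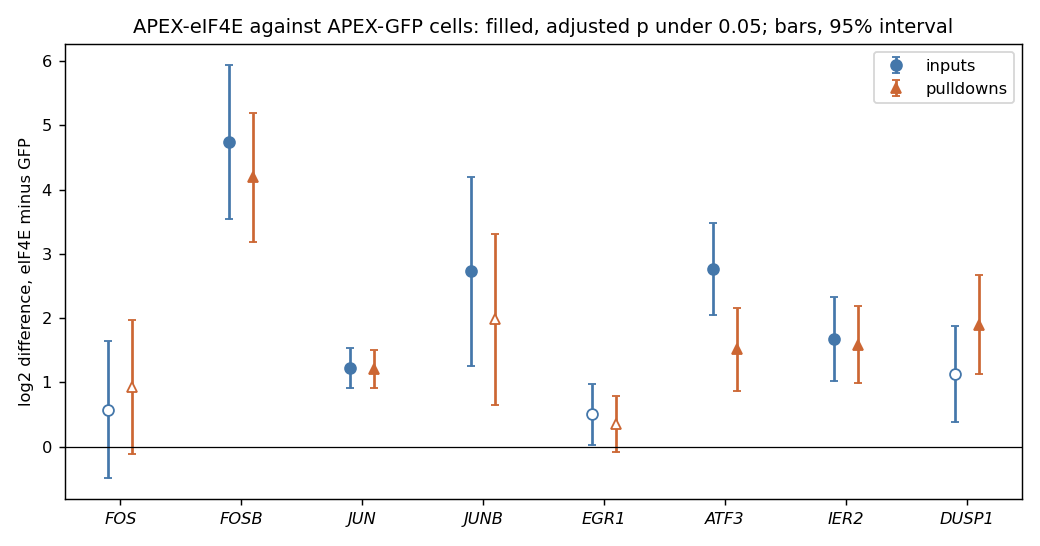
Points give the log2 difference of APEX-eIF4E minus APEX-GFP for each gene, in inputs and in pulldowns, with 95% confidence intervals; filled points passed an adjusted p of 0.05. FOSB lies highest in both fractions, at 4.74 in inputs and 4.19 in pulldowns, while the intervals of FOS include 0 in both.

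The pulldowns were then compared between constructs without correction for input. This comparison was chosen after the inputs were seen. A transcript that is higher in the inputs of a construct can be higher in its pulldowns for that reason alone. The pulldowns are therefore no independent support for the input differences. In 7 of 8 members both APEX-eIF4E pulldowns lay above both APEX-GFP pulldowns (24.8% of identifiers), EGR1 being the exception. FOSB, JUN, ATF3, IER2 and DUSP1 passed, 5 of 8 members against 5.46% of identifiers called and 2.74% called higher. FOSB was at 78.0 and 59.9 CPM against 6.32 and 1.31 CPM, a log2 difference of 4.19 ± 0.49 (adjusted p = 3.92e-06). That difference depended on the APEX-GFP libraries, becoming 5.65 without the first and 3.44 without the second, and passed in both cases. JUN was at 356 and 316 CPM against 152 and 138 CPM, 1.21 ± 0.14 higher (adjusted p = 3.92e-06).

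ATF3 was at 37.5 and 41.4 CPM in APEX-eIF4E pulldowns and 13.1 and 14.4 CPM in APEX-GFP pulldowns, 1.51 ± 0.31 higher on the log2 scale (adjusted p = 0.00379). IER2, at 48.5 and 42.2 CPM against 9.73 and 20.1 CPM, was 1.59 ± 0.29 higher (adjusted p = 0.00115), 2.22 higher without the second APEX-GFP pulldown and 1.16 higher (adjusted p = 0.0485) without the first. DUSP1, at 21.7 and 30.1 CPM against 8.75 and 5.24 CPM, was 1.90 ± 0.38 higher (adjusted p = 0.0024), and the call was lost without the second APEX-GFP pulldown (1.57, adjusted p = 0.0793). JUNB differed by 1.98 ± 0.65 (adjusted p = 0.0691) and FOS by 0.93 ± 0.51 (adjusted p = 0.309). EGR1 differed by 0.35 ± 0.21 (adjusted p = 0.374), with overlapping groups.

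The high level in cells with APEX-eIF4E was seen against the other constructs too. In 6 of 8 members, all but FOS and EGR1, both APEX-eIF4E libraries exceeded all 8 other naive libraries of the same fraction, in inputs and in pulldowns. Among all identifiers this held for 6.67% in inputs and 5.23% in pulldowns. The highest FOSB level among the other inputs was 18.3 CPM, in C1-APEX, and the highest JUN level 126 CPM, in APEX-CBX1. JUN passed against APEX-CBX1 (log2 difference 0.79, adjusted p = 0.00234), C1-APEX (1.05, adjusted p = 0.000461) and APEX-eIF4A (1.45, adjusted p = 2.86e-06). FOSB passed against APEX-CBX1 (4.79, adjusted p = 2.2e-05) and APEX-eIF4A (3.37, adjusted p = 0.000795) and not against C1-APEX (1.71, adjusted p = 0.185). ATF3 also passed against APEX-CBX1 (1.62, adjusted p = 0.00382) and IER2 against APEX-eIF4A (1.56, adjusted p = 0.0188).

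These 3 comparisons, also added later, called 3, 1 and 3 of 8 members, against 2.64%, 0.169% and 0.74% of identifiers. With 1 library left out in turn, FOSB kept both calls, although the difference from APEX-eIF4A became 4.45 without the second APEX-eIF4A input. JUN lost its call against APEX-CBX1 without the second APEX-eIF4E (0.73, adjusted p = 0.0774) or APEX-CBX1 input (0.73, adjusted p = 0.0888) or with library-size scaling (0.50, adjusted p = 0.0783), and against C1-APEX without the second C1-APEX input (0.82, adjusted p = 0.124). ATF3 lost its call without the second APEX-eIF4E (1.27, adjusted p = 0.185) or APEX-CBX1 input (1.34, adjusted p = 0.15), and IER2 without any 1 of its 4 libraries.

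In the 3 other constructs at most 1 member passed against APEX-GFP. In C1-APEX inputs FOSB was at 9.23 and 18.3 CPM, 3.03 ± 0.68 above APEX-GFP on the log2 scale (adjusted p = 0.0405), 1 of 8 members against 0.33% of identifiers called. The call was lost without any 1 of the 4 libraries, becoming 2.48 to 3.78 with adjusted p up to 0.666, and with library-size scaling (2.89, adjusted p = 0.0564). In the pulldowns FOSB was at 15.9 and 24.0 CPM in C1-APEX, 2.42 ± 0.53 above APEX-GFP (adjusted p = 0.00778, against 6.7% of identifiers called). Without the second APEX-GFP pulldown this became 1.65 (adjusted p = 0.131), and without the first 3.86. The call was also lost with only the libraries compared (2.40, adjusted p = 0.469) or only the pulldowns fitted (2.41, adjusted p = 0.0592). JUNB, EGR1, ATF3 and IER2 were also higher in both C1-APEX inputs than in both APEX-GFP inputs, by 1.86 ± 0.76, 0.73 ± 0.23, 1.44 ± 0.38 and 1.04 ± 0.33, with adjusted p of 0.115 to 0.456. With FOSB that made 5 members, against 23.6% of identifiers.

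In APEX-eIF4A inputs ATF3, at 26.5 and 25.6 CPM, was 1.66 ± 0.37 above APEX-GFP (adjusted p = 0.0312), 1 of 8 members against 0.579% of identifiers called. The call was lost without any 1 of the 4 libraries (1.49 to 1.80, adjusted p up to 0.441) and with library-size scaling (1.29, adjusted p = 0.0542). FOSB, at 1.96 and 5.53 CPM, differed by 1.37 ± 0.83 (adjusted p = 0.72). In APEX-CBX1 inputs 0 members passed in edgeR, against 0.0885% of identifiers called. An unadjusted p under 0.05 was found for 3 members and for 569 of 12427 identifiers. ATF3, at 22.0 and 14.6 CPM, differed most (1.15 ± 0.39, adjusted p = 0.711). In the pulldowns of APEX-CBX1 and APEX-eIF4A, 0 members passed against APEX-GFP (1.53% and 1.64% of identifiers called). There 1 and 3 members had an unadjusted p under 0.05, as had 1704 and 1580 of 12427 identifiers.

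**Figure D3:**
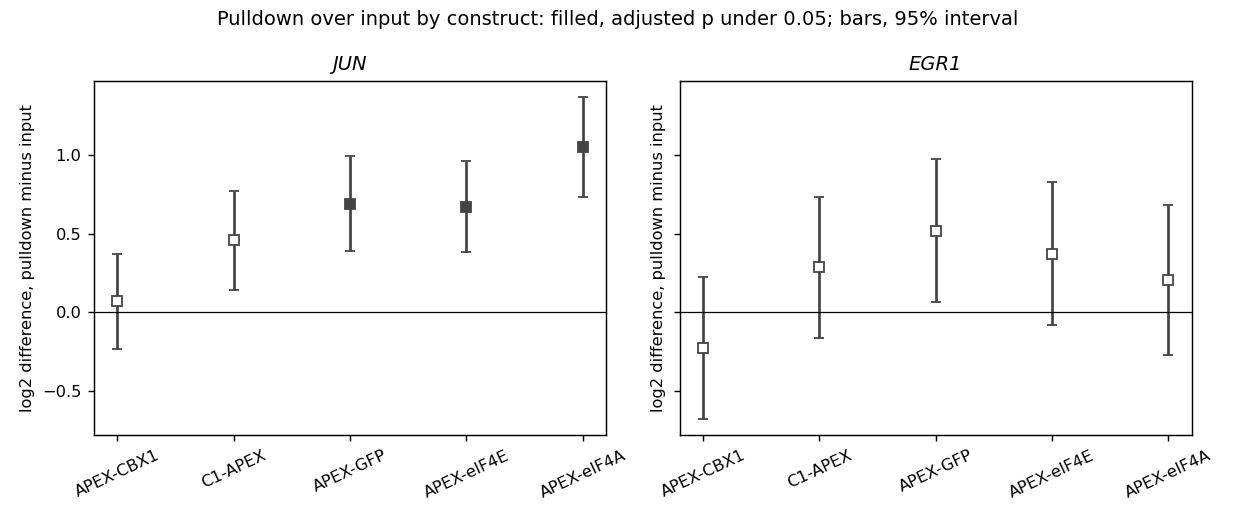
Points give the log2 difference of pulldown minus input of JUN and EGR1 in the 5 naive constructs, with 95% confidence intervals; filled points passed an adjusted p of 0.05. JUN passed in APEX-GFP, APEX-eIF4E and APEX-eIF4A, where its difference was 0.69, 0.67 and 1.05, and EGR1 in none.

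Labelling of these transcripts was read from each pulldown against its own input. JUN was the member that passed, in 3 of 5 constructs. In APEX-eIF4A its level was 164 and 156 CPM in pulldowns and 83.5 and 71.9 CPM in inputs, 1.05 ± 0.15 higher on the log2 scale (adjusted p = 7.72e-05; 2.18% of identifiers called). This call stood without any 1 library (0.95 to 1.14). In APEX-GFP, JUN was at 152 and 138 CPM in pulldowns and 81.7 and 98.0 CPM in inputs, 0.69 ± 0.15 higher (adjusted p = 0.00517; 4.04% called). It was lost without the first APEX-GFP input (0.56, adjusted p = 0.211) or pulldown (0.62, adjusted p = 0.0738).

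In APEX-eIF4E, JUN was 0.67 ± 0.14 higher in pulldowns than in inputs (adjusted p = 0.00509; 2.51% called). That call was lost without either input (0.62, adjusted p = 0.114, and 0.74, adjusted p = 0.0656) or the first pulldown (0.59, adjusted p = 0.127). With library-size scaling the JUN difference became 1.54 in APEX-eIF4E and 1.86 in APEX-eIF4A, against medians of 0.891 and 0.824 over all identifiers. In C1-APEX all pulldowns lay above all inputs, at 141 and 139 against 119 and 83.7 CPM, and JUN did not pass (0.46 ± 0.15, adjusted p = 0.0683; 6.45% called). In APEX-CBX1 the groups overlapped, at 125 and 131 against 126 and 118 CPM (0.07 ± 0.15, adjusted p = 0.871; 3.91% called).

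The other 7 members did not pass in any construct. EGR1 differed by 0.52 ± 0.22 in APEX-GFP (adjusted p = 0.231), 0.37 ± 0.22 in APEX-eIF4E (adjusted p = 0.527) and -0.23 ± 0.22 in APEX-CBX1 (adjusted p = 0.669; 0.15 with library-size scaling). IER2 differed by 0.91 ± 0.33 in APEX-eIF4A (adjusted p = 0.193) and DUSP1 by -0.90 ± 0.41 in APEX-GFP (adjusted p = 0.265). FOSB differed by 0.64 ± 0.37 in APEX-eIF4E (adjusted p = 0.517). Of 40 such tests 3 passed, and 7 had an unadjusted p under 0.05, as had 1464 to 2772 of 12427 identifiers, depending on the construct. With library-size scaling 10 passed, but the median of all identifiers then lay 0.177 to 0.891 above 0 on the log2 scale, depending on the construct. The identifiers called then numbered 567 to 4525 of 12427 per construct, against 271 to 802 with TMM scaling.

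When pulldown over input was compared with the same difference in APEX-GFP, 0 of 32 tests passed in edgeR. An unadjusted p under 0.05 was found in 3 of them, and for 411 to 1045 of 12427 identifiers, depending on the construct. DESeq2 also called 0, leaving 18 of the 32 without an adjusted p. The share of identifiers called by edgeR was 0.161% for APEX-CBX1 and 0% for the other 3 constructs, and by DESeq2 0.354% for APEX-CBX1, 0% for C1-APEX, 0.121% for APEX-eIF4E and 0.129% for APEX-eIF4A. The 3 were JUN and EGR1 in APEX-CBX1 (-0.62 ± 0.21, adjusted p = 0.383, and -0.75 ± 0.31, adjusted p = 0.572) and ATF3 in APEX-eIF4E (-1.25 ± 0.48, adjusted p = 1). For FOSB in APEX-eIF4E the difference was -0.55, with a 95% interval of -2.34 to 1.24, and for JUN -0.02, with an interval of -0.44 to 0.40. Both turned positive with library-size scaling, FOSB to 0.08 and JUN to 0.59. The median of all identifiers in that comparison was then 0.655, above both.

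**Figure D4:**
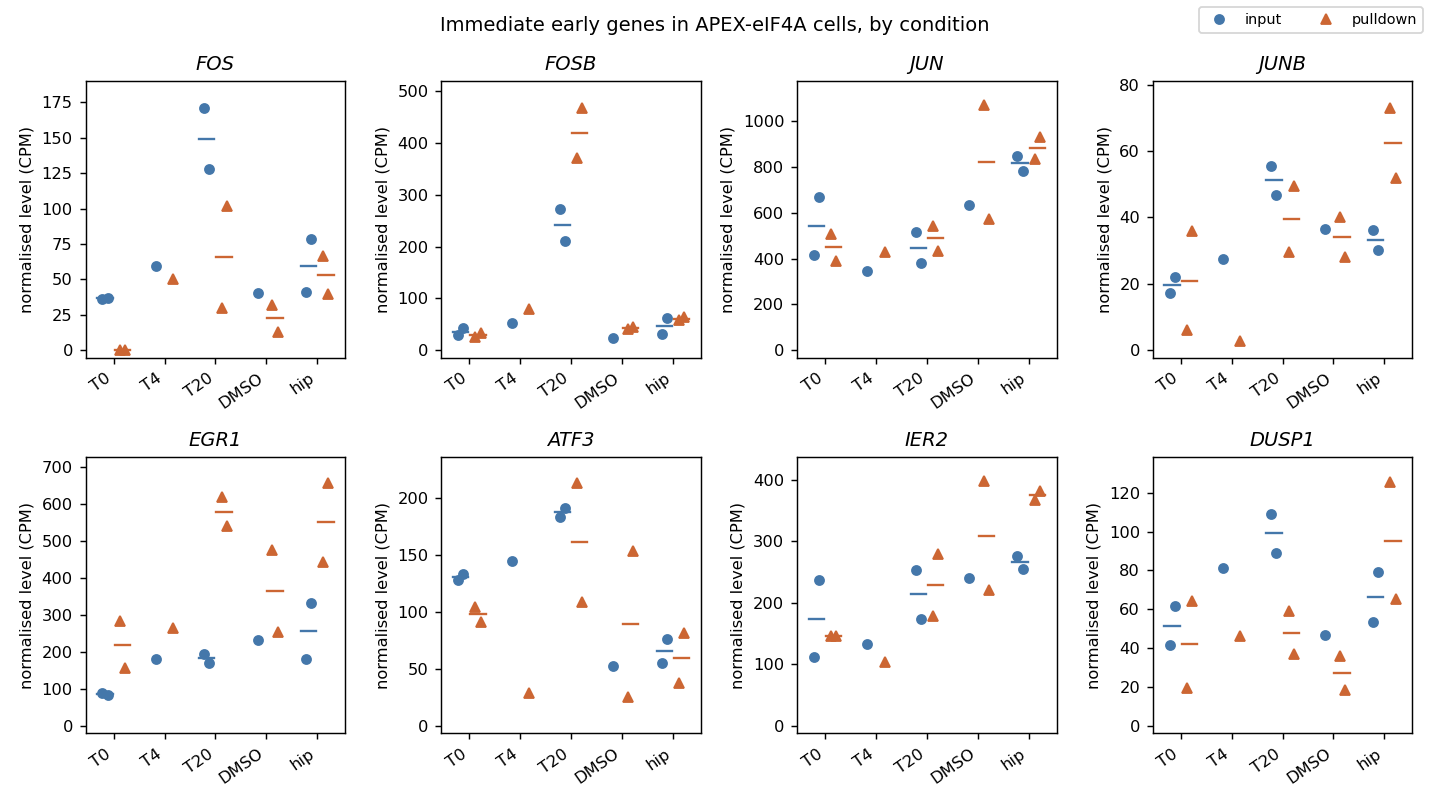
Each panel plots the CPM of 1 gene in the 17 libraries of the stress table, by condition; blue circles are inputs, orange triangles pulldowns and short lines group means. FOSB is highest in the T20 libraries of both fractions, and FOS lies at 0 in both T0 pulldowns.

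Across the heat shock series, FOSB and FOS had their highest input levels at T20. FOSB was at 28.5 and 42.0 CPM in T0 inputs, 53.0 CPM at T4 and 273 and 210.3 CPM at T20, a log2 difference of 2.78 ± 0.49 (SE) between T20 and T0. FOS was at 36.2 and 37.1 CPM at T0, 59.6 CPM at T4 and 171 and 128 CPM at T20, a difference of 2.02 ± 0.75. Neither gene overlapped between T0 and T20. JUNB, at 17.2 and 22.1 CPM at T0 and 55.7 and 46.9 CPM at T20, differed by 1.38 ± 0.90. JUN, at 414 and 669 CPM at T0 and 515 and 380.5 CPM at T20, differed by -0.27 ± 0.32, and its groups overlapped.

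EGR1 in the T4 input lay between its T20 inputs, with 89.4 and 84.0 CPM at T0, 182 CPM at T4 and 195 and 171 CPM at T20 (T20 minus T0, 1.08 ± 0.39). DUSP1 was at 41.7 and 61.5 CPM at T0, 81.2 CPM at T4 and 109 and 89.2 CPM at T20 (0.94 ± 0.67). ATF3 was at 128 and 134 CPM at T0, 144 CPM at T4 and 183 and 191 CPM at T20 (0.52 ± 0.60). IER2 overlapped, at 112 and 237 CPM at T0 and 254 and 174 CPM at T20 (0.30 ± 0.40). In 6 of 8 members both T20 inputs lay above both T0 inputs, against 24.4% of identifiers. FOSB, chosen for its rise in these inputs, is 1 of the 6, so this count is a description and no independent support. In the T4 input 6 of 8 members were higher than in both T0 inputs, against 30.1%. T4 is 1 library per fraction.

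**Figure D5:**
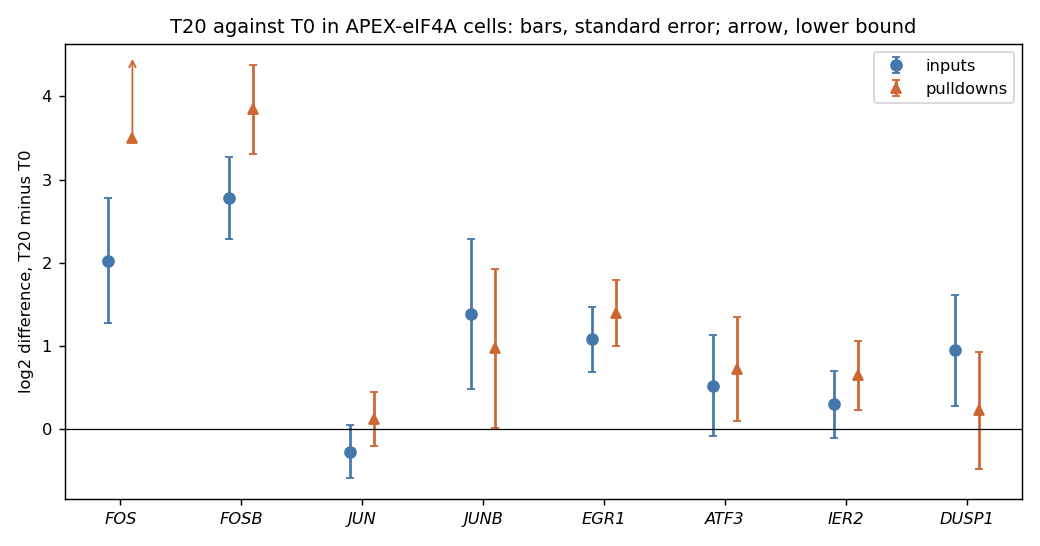
Points give the log2 difference of T20 minus T0 for each gene in inputs and in pulldowns, with bars of 1 SE. The pulldown value of FOS is a lower bound on the ratio of group means, drawn with an arrow. FOSB has the highest input value, 2.78, and lies at 3.84 in pulldowns, and JUN lies at -0.27 and 0.12.

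The pulldowns of the same conditions were not used to choose any member, and were tested. The comparison was not corrected for input. FOSB was chosen for its rise in inputs of these conditions, so its call here is not independent of that choice. The APEX-eIF4A pulldowns held more FOSB and FOS at T20 than at T0, 2 of 8 members against 0.144% of identifiers called and 0.0959% called higher. The inputs of both genes were higher at T20 too, and a change beyond that in the inputs was not tested. FOSB was at 25.4 and 33.5 CPM in T0 pulldowns (mean 29.4 ± 5.68, SD, n = 2) and 371 and 468 CPM in T20 pulldowns (mean 419.6 ± 68.6, SD, n = 2), with 79.5 CPM at T4. The groups did not overlap, and the log2 difference between T20 and T0 was 3.84 ± 0.54 (SE), 14.4-fold (adjusted p = 0.00768). Large estimates were common in this comparison: by log2 difference FOSB ranked 2733 of 16678 identifiers, and 33% of identifiers lay above 1. The call was lost without the second T0 pulldown (4.05, adjusted p = 0.111).

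FOS had 0 counts in both T0 pulldowns, while the T0 inputs held 290 and 158 counts. The DMSO pulldowns, also of cells with APEX-eIF4A, held 38 and 12 FOS counts (31.9 and 13.0 CPM). The absence at T0 was thus not shared by that other control group. FOS reached 29.6 and 102 CPM in T20 pulldowns, from 27 and 113 counts, and 50.3 CPM at T4, from 38 counts. With each T0 pulldown at a floor of 3 counts, which is 4.49 and 7.17 CPM, the mean FOS level at T20 was at least 11.3-fold above the mean floor (edgeR's adjusted p = 0.0429 from the counts as they are). This bound holds for the means and not for each library, as the T20 pulldowns differed widely. At the same mean floor FOS was at least 6.29-fold lower in T0 pulldowns than in the mean of the T0 inputs, a difference described without a test. The call was lost without the first T0 pulldown (adjusted p = 0.112), the second (adjusted p = 0.144) or the second T20 pulldown (adjusted p = 0.134). Fitted on the 4 libraries alone, neither FOS (adjusted p = 0.467) nor FOSB (3.79, adjusted p = 0.389) passed.

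The remaining members did not pass between T20 and T0 pulldowns in edgeR. EGR1, at 284 and 155 CPM at T0, 265 CPM at T4 and 618 and 541 CPM at T20, differed by 1.39 ± 0.40 (adjusted p = 0.143) without overlap. DESeq2 called EGR1 (1.38, adjusted p = 0.0265) beside FOS and FOSB, 3 of 8 members against 6.85% of identifiers that it called. IER2 differed by 0.65 ± 0.41 (adjusted p = 0.413) and ATF3 by 0.72 ± 0.62 (adjusted p = 0.569), also without overlap. With FOS and FOSB that made 5 members with both T20 pulldowns above both T0 pulldowns, against 19% of identifiers. JUNB differed by 0.97 ± 0.95 (adjusted p = 0.631), DUSP1 by 0.22 ± 0.71 (adjusted p = 0.956) and JUN by 0.12 ± 0.33 (adjusted p = 0.933), each with overlapping groups.

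EGR1 was the member with pulldowns above inputs in each of the T0, T20, DMSO and hippuristanol groups, a pattern that 1.33% of identifiers shared. Its log2 difference of pulldown minus input was 1.35 ± 0.40 at T0, 1.66 ± 0.40 at T20, 0.65 ± 0.49 in DMSO and 1.10 ± 0.39 with hippuristanol, where it was tested and did not pass (adjusted p = 0.708; 0 of 8 members in edgeR, 1 at an unadjusted p under 0.05, 0.252% of identifiers called; 0 members and 1.19% of identifiers in DESeq2). In the naive table the same difference in APEX-eIF4A cells was 0.21 ± 0.23 (adjusted p = 0.827). FOS and DUSP1 were lower in both pulldowns than in the inputs of T20 and DMSO, as were 37.9% and 48.3% of identifiers. FOS differed by -1.18 ± 0.74 at T20 and -0.83 ± 0.88 in DMSO, and DUSP1 by -1.05 ± 0.68 and -0.77 ± 0.81, against medians of -0.29 and -0.46 over all identifiers. FOSB differed by -0.27 ± 0.50 at T0 and 0.80 ± 0.46 at T20, against medians of -0.55 and -0.29 over all identifiers. The stress-table values other than those of hippuristanol are described without a test.

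With hippuristanol no member passed against DMSO. In pulldowns DUSP1 was at 125 and 65.1 CPM with hippuristanol and 36.1 and 18.4 CPM in DMSO, without overlap, a log2 difference of 1.79 ± 0.71 (adjusted p = 0.271). FOS was at 66.1 and 39.6 CPM against 31.9 and 13.0 CPM (1.22 ± 0.77, adjusted p = 0.473), FOSB at 57.9 and 63.0 CPM against 40.3 and 44.4 CPM (0.51 ± 0.48, adjusted p = 0.688) and JUNB at 73.0 and 51.8 CPM against 40.3 and 28.2 CPM (0.86 ± 0.91, adjusted p = 0.736). These 4 did not overlap between the groups (18.8% of identifiers were higher in this way). EdgeR called 0 of 8 members and 0% of identifiers, with 1 member and 2394 identifiers at an unadjusted p under 0.05; DESeq2 called 0 members and 797 identifiers (4.78%).

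JUN, at 834 and 933 CPM with hippuristanol and 1073 and 573 CPM in DMSO pulldowns, differed by 0.10 ± 0.32 (95% interval -0.57 to 0.77; -0.04 with library-size scaling). EGR1 differed by 0.59 ± 0.39, IER2 by 0.28 ± 0.40 and ATF3 by -0.58 ± 0.63, with overlapping groups. In inputs the single DMSO library was assumed to vary like the other groups, and 0 of 8 members passed in edgeR or had an unadjusted p under 0.05 (0% of identifiers called; DESeq2 also called 0 members and 0% of identifiers). FOSB was at 30.5 and 62.5 CPM with hippuristanol and 23.9 CPM in DMSO (0.96 ± 0.59, 95% interval -0.26 to 2.18), and JUN at 849 and 783 CPM against 634 CPM (0.36 ± 0.40). Both hippuristanol inputs lay above the DMSO input in 6 members, against 30.3% of identifiers, while EGR1 straddled it and JUNB lay below.

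The identifiers with levels most like those of FOS and FOSB were sought over the 8 stress inputs, by Pearson's r of log2 CPM among 11347 identifiers, as a description. ENSG00000179388.8 was the most like FOS (r = 0.986) and the second most like FOSB (r = 0.981), after ENSG00000147535.15 (r = 0.985). FOS and FOSB correlated at 0.968 with each other. The 2 T20 inputs were the highest of the 8 for both genes, so these values rest largely on that pair of libraries.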

How the data were processed

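The deposited values are raw counts per Ensembl identifier, made by the authors with cutadapt, HISAT2, featureCounts and GRCh38 (per the submitters' processing notes). Tool versions, strandedness and the handling of multi-mapped reads: not given in the sources used here. Groups came from sample titles; 1 column name is shared by 2 samples, and was taken for replicate 2 of the APEX-eIF4A inputs among the naive libraries and for the DMSO input among the stress libraries. Each table was fitted with edgeR 4.0.16 in R 4.3.3 (filterByExpr, TMM, robust glmQLFit, 2-sided quasi-likelihood F test), one mean per group over all libraries, with Benjamini-Hochberg adjustment over 12427 and 16678 identifiers; all 8 members passed the filter in both tables. The standard error is the log2 fold change divided by the square root of F. DESeq2 1.42.0 was an alternative. Whether replicates were separate cultures is not stated, so p-values cover the spread among libraries, perhaps only technical. Deviations of same-numbered libraries correlated at -0.163 to 0.162 (naive) and -0.787 to 0.636 (stress), and the numbers were not taken to pair them. The large values were among stress inputs: -0.699 for T0 with T20, -0.787 for T0 with hippuristanol and 0.636 for T20 with hippuristanol. These inputs thus shared a pattern of deviations, opposite in sign in T0, which the main fits did not model. All 8 members are named; members and lists were chosen with earlier results of these data known. The gene table matched 0 identifiers, so the lists and markers could not be applied; promoters were matched by symbol to RefSeq (GRCh38.p14).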

Additional observations from a re-analysis of the deposited data

Results flagged for a closer look

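In 11 cases a member moved in opposite directions in a pair of contrasts, with no overlap between the compared groups in either. The difference between the contrasts was not tested except where a test is given. How many such cases were examined is not given here, nor the share of all identifiers that met the same rule. The count of 11 is therefore not read as a result about the members. The log2 difference of FOS between pulldown and input was 0.41 in APEX-CBX1, with both pulldowns above both inputs, and -0.16 in APEX-eIF4E, with both below, a gap of 0.57; with library-size scaling FOS in APEX-eIF4E became 0.71. ATF3 in pulldown against input was 0.75 in APEX-GFP and -0.51 in APEX-eIF4E, a gap of 1.25. That gap was tested with edgeR and did not pass (adjusted p = 1), and ATF3 in APEX-eIF4E became 0.38 with library-size scaling. Under that scaling the median of all identifiers in APEX-eIF4E was 0.891, above both FOS and ATF3.

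The next comparisons share their APEX-GFP libraries. In inputs, EGR1 lay above APEX-GFP by 0.45 in APEX-CBX1, 0.73 in C1-APEX and 0.50 in APEX-eIF4E and differed by -0.24 in APEX-eIF4A, gaps of 0.69, 0.97 and 0.74. The gap between APEX-eIF4E and APEX-eIF4A is the difference of those inputs, which did not pass in edgeR (EGR1, adjusted p = 0.191). In pulldowns, JUN differed from APEX-GFP by -0.18 in APEX-CBX1, 1.21 in APEX-eIF4E and 0.14 in APEX-eIF4A, so that APEX-CBX1 stood apart from the others by -1.39 and -0.32. EGR1 differed from APEX-GFP by 0.49 in C1-APEX pulldowns and -0.55 in APEX-eIF4A pulldowns, a gap of 1.05.

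Between T4 and T0, JUNB was 0.49 higher in the T4 input than in the T0 inputs and changed by -2.92 in the pulldown, a gap of 3.41; the T4 pulldown held 2 JUNB counts. ATF3 was 0.14 higher in the T4 input and changed by -1.75 in the T4 pulldown, a gap of 1.89. T4 was 1 library per fraction. With hippuristanol, JUNB lay below the DMSO input in both inputs (-0.13) and above both DMSO pulldowns in both pulldowns (0.86), a gap of -0.99.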

How the results depend on the processing

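No member difference called in the edgeR fits reversed its sign under the alternatives run. Of all member differences, called ones included, 31 of 240 turned with library-size scaling (run on the described stress differences after the data were seen). Among 200 run under the other settings 3 turned with DESeq2, 2 without the count filter, and 68 when at least 1 library was left out. With only the libraries compared 1 of 191 turned. Among naive libraries, 3 of 40 pulldown-over-input tests of members passed, against 10 with library-size scaling, 5 with only the libraries compared and 2 to 3 with each library left out. For inputs against APEX-GFP 7 of 32 passed, against 3 in DESeq2, which left 20 of the 32 without an adjusted p, 15 with only the libraries compared, 11 with only the inputs fitted, and 3 to 6 with a library left out. For pulldowns against APEX-GFP 6 of 32 passed, and 4 to 8 with a library left out. For APEX-eIF4E inputs against the 3 other constructs 7 of 24 passed, against 11 without the count filter, 17 with only the libraries compared, 16 with only the inputs fitted, and 4 to 7 with a library left out. Input-adjusted comparisons with APEX-GFP gave 0, against 6 without input correction, and 0 to 0 with a library left out. Between T20 and T0 pulldowns 2 of 8 passed, against 3 in DESeq2, which added EGR1, 0 with only the libraries compared and 0 to 2 with a library left out; hippuristanol comparisons stayed at 0. Members higher in both T20 inputs numbered 6, and 6 to 7 with a library left out. With a replicate block the numbers of members called were 3 (pulldown over input), 7 (inputs against APEX-GFP) and 2 (T20 against T0 pulldowns), as without it, and it changed no count. The block used the replicate numbers, whose deviations ran opposite ways among the stress inputs, so it does not remove the pattern shared there. For most of these settings the share of all identifiers called is not given here. A larger count of members is therefore not read as a result about the members. The cause of these changes was not tested. Fits that leave out a library keep 1 in a group, which is assumed to vary like the others. At 0.839 to 2.39 CPM per count, stress pulldowns limit what can be seen of FOS and JUNB.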
